A study of Rattus norvegicus with 16 samples.

Results

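The acyl-CoA thioesterases examined here are 10 rat genes, Acot1, Acot2, Acot3, Acot4, Acot5, Acot7, Acot8, Acot9, Acot12 and Acot13. They were found on the array by the RefSeq accession of each probe, and all 10 were among the 20740 genes tested. Of these 20740, 11913 had a gene symbol. Each of the rest was a probe without a symbol, counted as a gene of its own in all shares and ranks below. By the usual location of their proteins, Acot1, Acot7 and Acot12 were taken as the 3 cytosolic members, Acot2, Acot9 and Acot13 as the 3 mitochondrial members, and Acot3, Acot4, Acot5 and Acot8 as the 4 peroxisomal members. The arrays measured RNA and not the place of any protein. The cells were primary hepatocytes of male Sprague Dawley rats, cultured in Williams Medium E. From 48 h after plating they were given 100 µM SQ1, a compound the labels name by this code alone, or 30 µM pravastatin, a statin that inhibits HMG-CoA reductase, for 48 h, or were left untreated. Each of 16 two-colour Agilent arrays carried a treated and an untreated culture, with 8 arrays per drug, of which 4 had the treated culture in the A555 dye and 4 in A647. The doses of the drugs differ, so a difference between them is a difference between these treatments only.

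Acyl-CoA thioesterases split a fatty acyl-CoA into the free fatty acid and coenzyme A. They set the size of acyl-CoA pools against the synthetases, which make acyl-CoA, and against the carnitine acyltransferases, which draw on it for oxidation. The family holds 2 protein folds that do the same chemistry. Type I enzymes (Acot1 to Acot5 here) are close relatives that lie side by side in the genome and differ in the signals that send them to cytosol, mitochondria or peroxisomes. Type II enzymes (Acot7, Acot8, Acot9, Acot12 and Acot13) share the hotdog fold and little sequence. Several type I genes are classical targets of PPARalpha, the fatty acid receptor that fibrate drugs activate in rodent liver.

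Values below are log2 ratios of treated over untreated RNA on the same array, so 1 is a doubling and 0 no difference. A gene was called higher or lower where limma's two-sided test gave an adjusted p under 0.05, with Benjamini-Hochberg adjustment over all 20740 genes. SE is the fit's standard error, and SD is the spread over the 8 arrays of a drug. The median log2 ratio over all genes was 0.0074 with SQ1 and 0.0019 with pravastatin. On each array between 71.3% and 86.2% of spots were well above background in a channel. The 12 probes of the members were well above background in 32 of 32 channel measurements, and none was saturated. All 12 hepatocyte markers looked for (Alb, Apob, Hnf4a and others) were measured, as were all 13 macrophage markers. The deposited value table goes against its own labels. Each of its columns tracked the scanner ratios of an array of the other drug that bears the same replicate number (r from 0.938 to 1, against 0.422 to 0.562 for the array it is labelled with). The drug names used here follow the sample labels and their scanner files, which name the same drug for every array. Same-numbered arrays of the 2 drugs carry the same control number, so the 2 comparisons appear to share untreated cultures. Each drug's values are therefore given side by side, and the drugs are tested against each other only by the difference of their ratios. Whether their arrays overlapped is also described, without a test. The design text calls the arrays biological replicates, but no label ties them to separate animals, so the p-values measure the spread between these cultures.

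SQ1 was associated with higher RNA for most of the family. Of the 10 members, 8 were called higher and 2 lower with SQ1, and the median over the members was 1.02. The smallest of the 8 was Acot8 at 0.078, and its call was lost under several alternatives, such as a random replicate block. Calls were common in this comparison: 63.7% of all genes were called, 32.6% higher and 31.1% lower. With pravastatin 7 members were called higher, 2 lower and 1 was not called, and the median was 0.15, against 41.4% of all genes called, 20.8% higher and 20.7% lower. The number higher with pravastatin was 5 when the second probes of Acot2 and Acot4 were used. With SQ1 the ratios ran from 2.93 for Acot1 to -0.43 for Acot12, and with pravastatin from 0.88 for Acot5 to -0.76 for Acot12. Acot12 and Acot13 were the members called lower, and they were lower with both drugs.

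**Figure D1:**
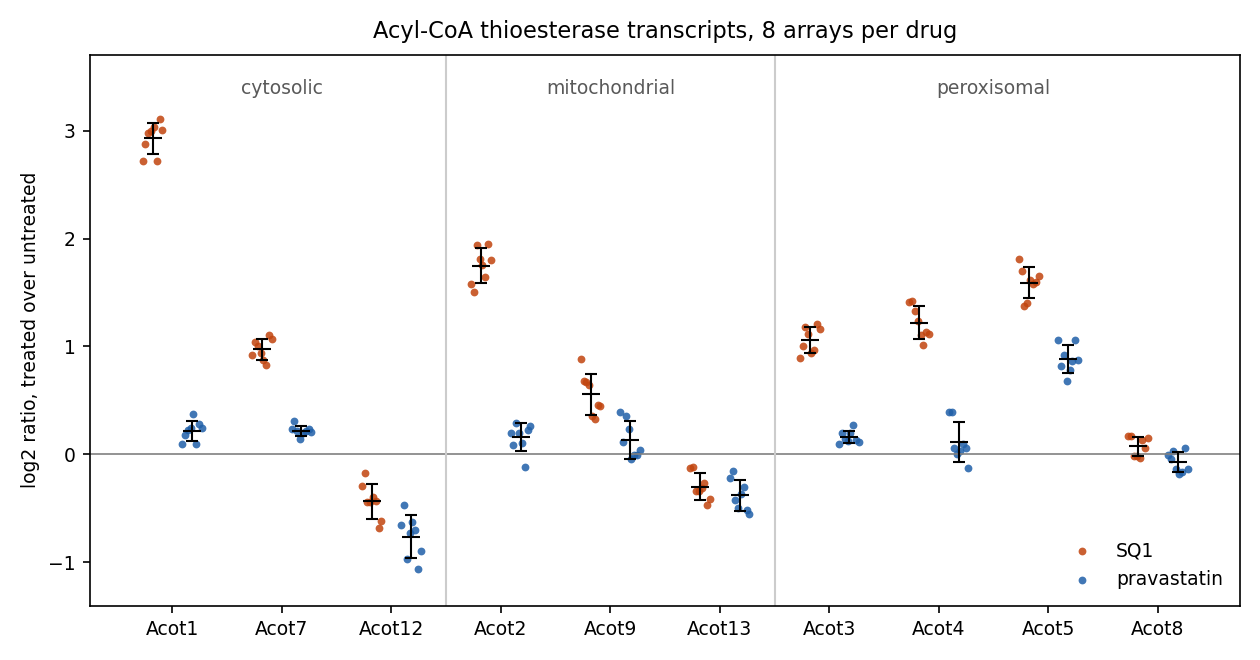
Log2 ratio of treated over untreated RNA (y axis) for each of the 10 members (x axis, grouped by compartment), with 1 point per array, 8 arrays per drug, and black bars for the mean and SD. Acot1 stands highest with SQ1, between 2.71 and 3.10, while Acot12 and Acot13 lie below 0 on every array of both drugs.

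Among the cytosolic members, Acot1, a long-chain acyl-CoA thioesterase, had the largest ratio of the family. Before normalisation, its probe read between 798 and 2540 intensity units above local background in the untreated channel of the SQ1 arrays and between 7851 and 14380 in the treated channel. On the pravastatin arrays the untreated channel read between 573 and 1368, with a median of 878 against 1384 on the SQ1 arrays. The reason for this gap was not tested. The log2 ratio of Acot1 with SQ1 was 2.71 on the lowest array, 2.99 at the median and 3.10 on the highest. All 8 arrays lay close together, with replicates 1 and 6 lowest, and far from 0. The fitted value was 2.93 (SE 0.040, n = 8), a 7.61-fold higher level (limma adjusted p = 5.6e-20), which placed Acot1 at rank 17 of all genes in order of signed change. With pravastatin its ratio ranged from 0.096 through a median of 0.24 to 0.38, above 0 on 8 of 8 arrays, and the fitted value was 0.22 (SE 0.040, limma adjusted p = 0.00024). The highest pravastatin array thus lay well under the lowest SQ1 array. The Acot1 probe is spotted 10 times on each array, and the SD of those spots within an array was between 0.032 and 0.068.

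Acot7, known as the brain acyl-CoA hydrolase and active on long-chain acyl-CoA, was about doubled with SQ1. Its log2 ratio was 0.83, 0.97 and 1.104 on the lowest, median and highest SQ1 array, with a fitted value of 0.97 (SE 0.029, 1.96-fold, limma adjusted p = 3.8e-15). With pravastatin the same 3 values were 0.14, 0.22 and 0.31, and the fitted value was 0.22 (SE 0.029, limma adjusted p = 7.8e-06). Both drugs had Acot7 above 0 on 8 of 8 arrays, and their arrays did not overlap. Acot12, a cytosolic hydrolase of acetyl-CoA, went the other way. Its ratio with SQ1 was -0.68 on the lowest array, -0.43 at the median and -0.17 on the highest, and the fitted value was -0.43 (SE 0.053, 1.35-fold lower, limma adjusted p = 1e-06). With pravastatin it was -1.06, -0.71 and -0.46, and the fitted value was -0.76 (SE 0.053, 1.70-fold lower, limma adjusted p = 2.2e-09). Acot12 was below 0 on all 16 arrays, with the pravastatin arrays lower but overlapping those of SQ1. By dye, its mean with the treated culture in A555 and in A647 was -0.34 and -0.53 with SQ1. With pravastatin these means were -0.70 and -0.82.

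Among the mitochondrial members, Acot2, the long-chain thioesterase of the matrix, ranked next after Acot1. Its log2 ratio with SQ1 was 1.50 on the lowest array, 1.78 at the median and 1.95 on the highest, for a fitted value of 1.75 (SE 0.049, 3.36-fold, limma adjusted p = 1.6e-15). With pravastatin it was -0.11, 0.20 and 0.29, above 0 on 7 of 8 arrays with replicate 6 below, and the fitted value was 0.16 (SE 0.049, limma adjusted p = 0.015). The arrays of the 2 drugs did not overlap. A second Acot2 probe gave 1.66 with SQ1 but 0.048 with pravastatin (limma adjusted p = 0.70), so the small pravastatin call rests on 1 of the 2 probes. Within the first scan day alone the pravastatin value was 0.069 (limma adjusted p = 0.41).

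Acot9, a mitochondrial thioesterase of broad chain-length range, had log2 ratios of 0.33, 0.55 and 0.88 on the lowest, median and highest SQ1 array and a fitted value of 0.56 (SE 0.032, 1.47-fold, limma adjusted p = 2.8e-11). With pravastatin the 3 values were -0.043, 0.078 and 0.39, and the fitted value was 0.14 (SE 0.032, limma adjusted p = 0.0021). These arrays split by dye. With SQ1 the mean was 0.72 over the 4 arrays with the treated culture in A555 and 0.40 over the 4 with it in A647. With pravastatin the corresponding means were 0.28 and -0.0051, and the fit carries a dye term for this. Within the first scan day the pravastatin value of Acot9 was 0.11 (limma adjusted p = 0.14).

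Acot13, a small thioesterase also called Them2 that is found with mitochondria and acts on long-chain acyl-CoA, was lower with both drugs. Its log2 ratio was -0.47, -0.32 and -0.12 on the lowest, median and highest SQ1 array, for a fitted value of -0.30 (SE 0.040, 1.23-fold lower, limma adjusted p = 3.5e-06). With pravastatin it was -0.55, -0.40 and -0.16, for a fitted value of -0.38 (SE 0.040, 1.30-fold lower, limma adjusted p = 6.2e-07). All 16 arrays were below 0, and the ranges of the 2 drugs overlapped almost fully. The probe is spotted 10 times, and the SD of those spots within an array was between 0.015 and 0.036.

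The peroxisomal members held 3 type I genes that were higher with SQ1 and 1 type II gene that lay near 0. Acot3, which acts on long-chain acyl-CoA, had ratios of 0.89, 1.06 and 1.21 on the lowest, median and highest SQ1 array, with a fitted value of 1.06 (SE 0.034, 2.08-fold, limma adjusted p = 1e-14). With pravastatin it had 0.10, 0.14 and 0.28, and a fitted value of 0.16 (SE 0.034, limma adjusted p = 0.00086). Acot3 was above 0 on all 16 arrays, and the drugs did not overlap. Acot4, which in mice hydrolyses succinyl-CoA and other dicarboxylyl-CoA esters, had ratios of 1.02, 1.19 and 1.43 with SQ1 and a fitted value of 1.22 (SE 0.041, 2.33-fold, limma adjusted p = 1.6e-14). With pravastatin it had -0.12, 0.060 and 0.40, and a fitted value of 0.12 (SE 0.041, limma adjusted p = 0.029). Replicates 1 and 2 carried that pravastatin value, at 0.40 and 0.39, and the other 6 arrays lay between -0.12 and 0.10. Without replicate 1 the value was 0.090 (limma adjusted p = 0.099), without replicate 2 it was 0.091 (limma adjusted p = 0.096), and the call was also lost without replicate 5, 6 or 7. The second Acot4 probe gave 1.12 with SQ1 and 0.040 with pravastatin (limma adjusted p = 0.44). By dye, the mean of Acot4 with the treated culture in A555 and in A647 was 1.35 and 1.09 with SQ1. With pravastatin these means were 0.21 and 0.018.

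Acot5, a peroxisomal thioesterase of medium-chain acyl-CoA, was the member with the largest pravastatin ratio. Its log2 ratio with pravastatin was 0.68 on the lowest array, 0.87 at the median and 1.06 on the highest, and the fitted value was 0.88 (SE 0.046, 1.84-fold, limma adjusted p = 4e-11). With SQ1 the 3 values were 1.37, 1.61 and 1.81, and the fitted value was 1.59 (SE 0.046, 3.01-fold, limma adjusted p = 2.5e-15). Every array of both drugs was above 0, and the highest pravastatin array stayed under the lowest SQ1 array. The other 4 type I members had pravastatin values of 0.22 or less. Acot8, a peroxisomal thioesterase of very broad substrate range that includes bile acid CoA esters, lay close to 0. With SQ1 its ratio was -0.033, 0.095 and 0.17 on the lowest, median and highest array, above 0 on 5 of 8, and the fitted value was 0.078 (SE 0.032, 95% interval 0.0096 to 0.15, limma adjusted p = 0.044). With pravastatin it was -0.18, -0.087 and 0.060, and the fitted value of -0.070 (SE 0.032, 95% interval -0.14 to -0.0020) was not called (limma adjusted p = 0.094). With the replicate number as a random block the adjusted p of the SQ1 value was 0.061. The call was also lost when SQ1 replicate 1, 2, 6, 7 or 8 or pravastatin replicate 2 or 8 was left out, with values from 0.064 to 0.078. Without pravastatin replicate 7 the pravastatin value of Acot8 was -0.093 and called (limma adjusted p = 0.034).

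Set in order by the SQ1 value, the members ran Acot1, Acot2, Acot5, Acot4, Acot3, Acot7, Acot9, Acot8, Acot13 and Acot12. Acot1 did not overlap its neighbour Acot2 on any array, Acot9 did not overlap Acot8, and Acot8 did not overlap Acot13. The other neighbours in this order overlapped in their array values. These are ratios of each gene to its own untreated level, and probe brightness was not compared between genes.

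Grouped by compartment, the members did not separate by direction. With SQ1 the cytosolic group had 2 members higher and 1 lower with a median of 0.97, the mitochondrial group 2 higher and 1 lower with a median of 0.56, and the peroxisomal group 4 higher with a median of 1.14. Those 4 include Acot8 at 0.078, whose call was lost under several alternatives. Within the cytosolic group the values spread from -0.43 to 2.93, within the mitochondrial group from -0.30 to 1.75, and within the peroxisomal group from 0.078 to 1.59, so each group spanned more than the gaps between the medians. With pravastatin the medians were 0.22, 0.14 and 0.14, and the cytosolic and mitochondrial groups again held 2 members higher and 1 lower, while the peroxisomal group held 3 higher and 1 not called. The mitochondrial pravastatin median was 0.048 with the second Acot2 probe and 0.069 within the first scan day, and the peroxisomal one was 0.21 within the first day and 0.065 within the second. The place of Acot13 matters to these medians. Counted as cytosolic, where it is also found, it took the cytosolic SQ1 median to 0.34 and the mitochondrial one to 1.15, and turned the cytosolic pravastatin median to -0.079. No test was made over groups of so few, chosen members. Over all genes, 32.6% were called higher and 31.1% lower with SQ1, and 20.8% and 20.7% with pravastatin.

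Grouped by protein family, a grouping that was not planned and was not tested, the type I members were all 5 called higher with SQ1. Their values ran from 1.06 to 2.93 with a median of 1.59, and 32.6% of all genes were called higher. The 5 type II members were 3 higher and 2 lower, from -0.43 to 0.97 with a median of 0.078. Among the 3 higher was Acot8, whose call was lost under several alternatives. With pravastatin the 5 type I members were again called higher, from 0.12 to 0.88 with a median of 0.16, against 20.8% of all genes. The calls of Acot2 and Acot4 among them rest on 1 probe each. Their second probes gave 0.048 and 0.040 with pravastatin and were not called. The type II members were then 2 higher, 2 lower and 1 not called, with a median of -0.070. The highest type II value with SQ1, 0.97 for Acot7, was under the lowest type I value, 1.06 for Acot3, though their arrays overlapped. Type I members occur in all 3 compartments, as Acot1 in the cytosol, Acot2 in mitochondria and Acot3, Acot4 and Acot5 in peroxisomes. In the RefSeq gene order of the rat these 5 genes are neighbours on chromosome 6, in the order Acot2, Acot1, Acot4, Acot3 and Acot5, with a ribosomal protein gene between Acot1 and Acot4. The type II members lie on chromosomes 5 (Acot7), 3 (Acot8), X (Acot9), 2 (Acot12) and 17 (Acot13). Type I transcripts are similar enough that a probe may bind RNA of more than 1 of them, so the single values of Acot1 to Acot5 are uncertain to that degree.

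The sequence just before the gene start was read for members that moved in different ways, to show whether the element bound by PPARalpha with its partner RXR appears there. That element is a direct repeat of AGGTCA with 1 base between the copies. It was searched on both strands with up to 2 mismatches in the 250 bases before each start given by RefSeq (build GRCr8). In all, 11 windows covered the 10 members, Acot7 having 2, and 3 windows held a match. Of 33469 windows of the same length before rat genes, 3.15% held a match with up to 2 mismatches and 0.368% with up to 1. The 3 matches had 1 mismatch each, and they fell in Acot4, which was higher with SQ1, in Acot8, which lay near 0, and in Acot12, which was lower with both drugs. The windows below are those 3 and that of Acot1, the member with the largest ratio, at chr6:109367024-109367273, plus strand for Acot1, chr6:109399604-109399853, plus strand for Acot4, chr3:173962189-173962438, minus strand for Acot8 and chr2:24721709-24721958, plus strand for Acot12. Each is written from 5′ to 3′ on the strand of its gene, and capitals mark the match.
Acot1: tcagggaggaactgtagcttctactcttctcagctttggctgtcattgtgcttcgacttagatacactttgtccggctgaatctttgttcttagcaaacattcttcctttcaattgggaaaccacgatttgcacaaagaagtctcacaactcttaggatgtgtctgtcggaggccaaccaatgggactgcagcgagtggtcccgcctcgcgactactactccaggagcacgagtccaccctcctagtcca
Acot4: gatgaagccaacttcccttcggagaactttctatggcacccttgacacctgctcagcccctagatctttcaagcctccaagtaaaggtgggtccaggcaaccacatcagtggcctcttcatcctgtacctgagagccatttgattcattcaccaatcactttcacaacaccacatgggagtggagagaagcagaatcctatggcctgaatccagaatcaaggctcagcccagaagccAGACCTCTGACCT
Acot8: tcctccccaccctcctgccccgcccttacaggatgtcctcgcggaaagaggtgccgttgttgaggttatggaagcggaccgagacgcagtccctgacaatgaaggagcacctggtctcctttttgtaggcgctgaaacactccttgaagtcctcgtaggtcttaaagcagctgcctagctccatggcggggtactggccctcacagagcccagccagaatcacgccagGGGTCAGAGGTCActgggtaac
Acot12: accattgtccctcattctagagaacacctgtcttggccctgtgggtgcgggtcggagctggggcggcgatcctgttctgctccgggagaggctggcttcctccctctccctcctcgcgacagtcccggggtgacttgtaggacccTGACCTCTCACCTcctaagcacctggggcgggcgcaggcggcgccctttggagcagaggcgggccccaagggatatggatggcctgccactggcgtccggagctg
Counted from the start of the gene, the match began at -13 in Acot4, on the opposite strand, at -22 in Acot8, on the strand of the gene, and at -105 in Acot12, on the opposite strand. The windows of Acot1, Acot2, Acot3, Acot5, Acot7, Acot9 and Acot13 held no match to these letters. A match is a likeness of letters, and binding was not measured.

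Set against each other, the ratios with SQ1 exceeded those with pravastatin for 9 of the 10 members by limma's test of the difference, and none was lower. Over all genes 38.1% were called for this difference, 18.5% higher and 19.6% lower. That is 7897 of 20740 genes, while 10155 were called with the replicate number as a fixed block and 10175 as a random block. The gap was widest for Acot1, at 2.71 (SE 0.057, 6.53-fold, limma adjusted p = 5.2e-16). Acot2 followed at 1.59 (SE 0.070), then Acot4 at 1.11 (SE 0.058), Acot3 at 0.90 (SE 0.048), Acot7 at 0.75 (SE 0.041), Acot5 at 0.71 (SE 0.065) and Acot9 at 0.42 (SE 0.045). Acot12 was lower with both drugs and less so with SQ1, by 0.33 (SE 0.075, limma adjusted p = 0.0019). Acot8 differed by 0.15 (SE 0.046, limma adjusted p = 0.016). Acot13 differed by 0.080 (SE 0.057, 95% interval -0.040 to 0.20) and was not called (limma adjusted p = 0.30). With the replicate number as a fixed block, which takes the shared control number into account, the same 0.080 had an adjusted p of 0.020, and as a random block 0.092. A scan-day term called the difference too (0.080, adjusted p = 0.028), as did centring each array on its median (0.14, adjusted p = 0.038) or scaling arrays to 1 spread (0.18, adjusted p = 0.015), each of which took the count to 10 members. Over the alternatives other than the deposited table as labelled and the leaving out of single arrays, its adjusted p ran from 0.015 to 0.40. For 6 members (Acot1, Acot2, Acot3, Acot4, Acot5 and Acot7) every SQ1 array lay above every pravastatin array, a separation in either direction that 11.2% of all genes showed. Each of the 4 slides held 1 drug, so drug and slide cannot be told apart in these differences.

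**Figure D2:**
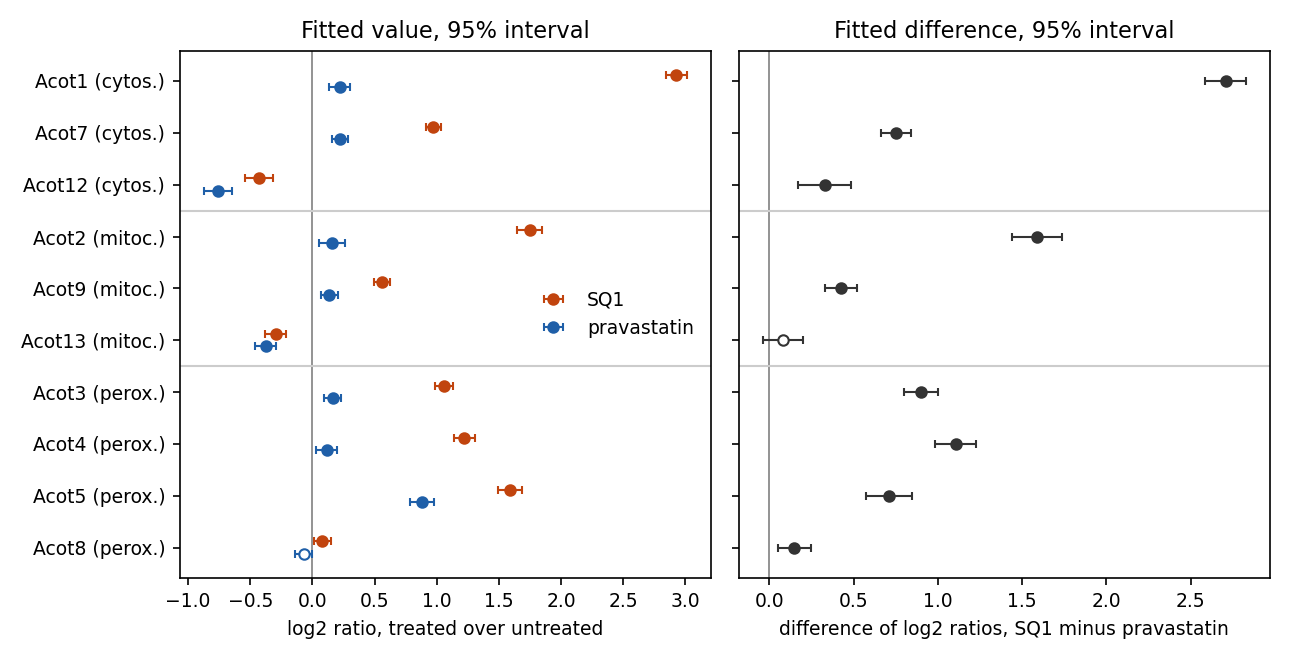
Left, fitted log2 ratio of treated over untreated with its 95% interval for each member (y axis, by compartment) and drug; right, the fitted difference SQ1 minus pravastatin with its 95% interval. Filled points were called at an adjusted p under 0.05 and open points were not; Acot8 with pravastatin and the difference of Acot13 are open.

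The arrays were scanned on 2 days, each of which held 4 arrays of each drug. Those 4 arrays lay on the same slide, and the slide changed with the day. Within a drug, scan day and slide therefore cannot be told apart. With SQ1, the second scan day gave higher ratios than the first for Acot2 (1.87 against 1.62) and Acot3 (1.17 against 0.95). It gave lower ratios for Acot12 (-0.54 against -0.32) and Acot13 (-0.39 against -0.21). With pravastatin the second day was lower for Acot12 (-0.91 against -0.61), for Acot13 (-0.49 against -0.26) and for Acot4 (0.0012 against 0.23). Each of these 7 differences was called in a fit over all genes, in which 15.7% of genes were called for SQ1 and 4.62% for pravastatin. Acot1 with SQ1 had 3.02 on the second day and 2.84 on the first, a difference that was not called (limma adjusted p = 0.074). In the fits within each scan day, the SQ1 calls were kept on both days for every member but Acot8, whose second-day value was 0.047 (limma adjusted p = 0.36). The labels do not say whether cultures were split between these days as well.

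**Figure D3:**
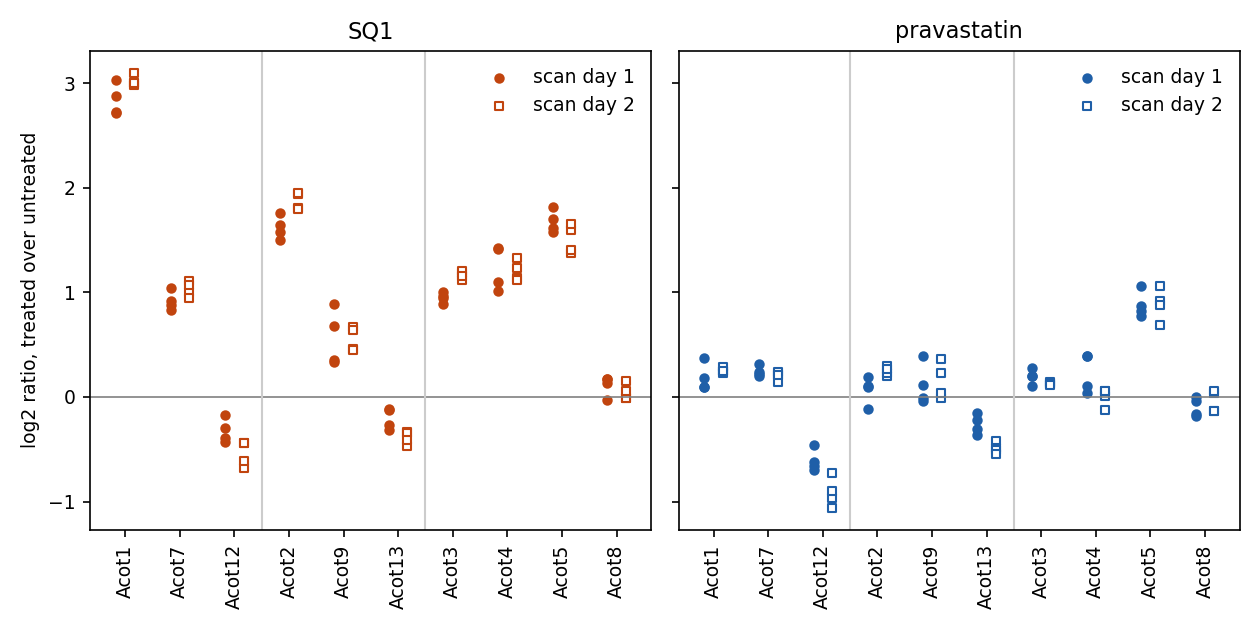
Log2 ratio of treated over untreated (y axis) for each member (x axis) on the 4 arrays of the first scan day (filled circles) and the 4 of the second (open squares), by drug. Acot12 and Acot13 sit lower on the second day with both drugs, and the pravastatin values of Acot4 near 0.40 belong to the first day.

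Other genes of acyl-CoA metabolism were looked at by list. Their counts stand beside the shares of all genes called, 32.6% higher and 31.1% lower with SQ1 and 20.8% and 20.7% with pravastatin. Of the other thioesterases, 13 of 16 were measured, and with SQ1 7 were higher and 4 lower, with a median of 0.087. Baat, which joins bile acids to glycine or taurine and can also hydrolyse acyl-CoA, had the largest change among them, at -1.73 (SE 0.070) with SQ1 and -0.64 with pravastatin. Ppt1, a lysosomal thioesterase of palmitoylated proteins, was higher with SQ1 at 0.39, and Hibch, which hydrolyses an intermediate of valine breakdown, at 0.37. With pravastatin 3 were higher and 3 lower, Hibch at 0.24 and the depalmitoylase Abhd17b at -0.23 among them.

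The acyl-CoA synthetases, which run the opposite reaction, were mixed. Of the 21 measured of 24, SQ1 had 8 higher and 9 lower and pravastatin 9 higher and 7 lower, with medians of 0.0083 and 0.012. Acss2, which makes acetyl-CoA from acetate, was higher with both, at 2.21 with SQ1 and 2.50 with pravastatin. Aacs, the acetoacetyl-CoA synthetase, was also higher with both, at 2.07 with SQ1 and 2.04 with pravastatin. Acsm5, a medium-chain synthetase, was lower with both, at -2.29 and -1.48, and Slc27a5, a bile acid and fatty acyl-CoA synthetase, was at -2.14 with SQ1.

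Acyl-CoA carriers and carnitine acyltransferases rose more often than they fell with SQ1, with 11 higher and 5 lower of the 16 measured of 18 and a median of 0.30. Cpt1b, a carnitine palmitoyltransferase best known from muscle, was at 2.22, Crat, the carnitine acetyltransferase, at 1.03, and Abcd3, a peroxisomal acyl-CoA transporter, at 0.81. Pravastatin had 2 higher and 4 lower, among them Acbd5, an acyl-CoA binding protein, and Slc25a17, a peroxisomal carrier, each at -0.16. With SQ1 Acbd5 was at -0.37 and Slc25a17 at -0.46. Of coenzyme A synthesis and breakdown genes, 13 of 15 were measured, with 7 higher and 4 lower with SQ1 and 4 higher and 4 lower with pravastatin. Vnn1, a pantetheinase, was at 1.32 with SQ1. The pantothenate kinases Pank1 and Pank3, which begin coenzyme A synthesis, were at 1.08 and 0.58 with SQ1 and at 0.68 and 0.56 with pravastatin. Coasy, which completes it, was lower with both, at -0.41 with SQ1 and -0.25 with pravastatin.

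Known PPARalpha targets outside the family, with Cpt1b counted again, were higher with SQ1 for 23 of 25 and lower for 2, with a median of 0.57. Cyp4a2, a fatty acid hydroxylase, was at 2.79 (SE 0.10, 6.90-fold), and Pdk4, which inhibits pyruvate dehydrogenase by phosphorylating it, at 1.91. Fgf21, a hormone gene named here after its value was seen, was among the 2 that were lower, at -0.94. With pravastatin 3 were higher and 12 lower, with a median of -0.088. Ehhadh and Cyp4a1 were lower with pravastatin, at -0.53 and -0.50, and Angptl4 was higher at 0.44. All of them were higher with SQ1, Ehhadh at 0.92, Cyp4a1 at 0.76 and Angptl4 at 0.50.

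**Figure D4:**
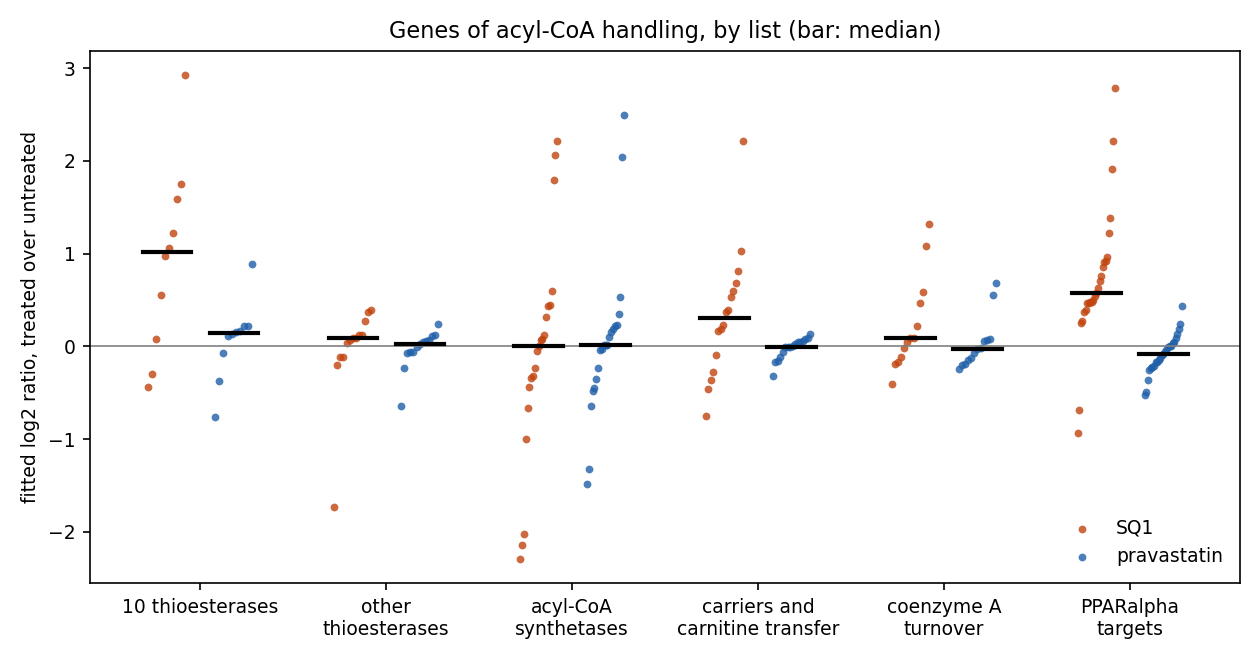
Fitted log2 ratio of treated over untreated (y axis) of each measured gene in 6 lists (x axis), with 1 point per gene and a bar at the median, by drug. The members and the PPARalpha targets have SQ1 medians of 1.02 and 0.57, and the other lists have medians between 0.0083 and 0.30.

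Markers of cell types moved beside these genes. Of all genes, 32.6% were called higher and 31.1% lower with SQ1, and 20.8% and 20.7% with pravastatin. All 12 hepatocyte markers were lower with SQ1, with a median of -0.55 and array means from -0.93 to -0.25, Cps1 of the urea cycle at -1.59, Ahsg at -0.90 and Serpina1 at -0.77. Before the fit's dye term, Ttr was above 0 on 4 of 8 SQ1 arrays, Alb and Tf on 2 each and Hnf4a on 1. The other hepatocyte markers were below 0 on every SQ1 array. With pravastatin 9 were lower and 2 higher, with array means from -0.54 to 0.11, Cps1 at -0.56, Hpd at -0.48 and Apoa1 at 0.61. All 13 macrophage markers were lower with both drugs, with array means from -0.72 to -0.33 for SQ1 and from -0.96 to -0.72 for pravastatin. Aif1 was at -0.77, Cd14 at -0.72 and Vsig4 at -0.65 with SQ1, and Clec4f at -1.63, Aif1 at -1.08 and Cd68 at -1.05 with pravastatin. Of the stellate cell and fibroblast markers, 9 of 10 were measured, and 9 were lower with SQ1 (Lrat at -0.81, Col3a1 at -0.77 and Pdgfrb at -0.71) and 4 with pravastatin (Lrat at -0.37, Col3a1 at -0.22 and Pdgfrb at -0.15). Their array means ran from -0.70 to -0.29 with SQ1 and from -0.14 to -0.018 with pravastatin. Of 8 endothelial markers 4 were measured, 3 of them lower with SQ1 (Lyve1 at -0.80, Kdr at -0.43 and Pecam1 at -0.13) and 1 with pravastatin (Pecam1 at -0.10), with array means from -0.43 to -0.26 and from -0.081 to 0.085. Of 7 cholangiocyte markers 6 were measured, with 1 higher and 3 lower with SQ1 and 3 higher and 1 lower with pravastatin. Epcam was at 0.57 with SQ1 and 0.36 with pravastatin, Spp1 at -0.34 with each and Cftr at 0.13 with pravastatin, and the array means ran from -0.097 to 0.15 and from -0.081 to 0.15. In whole cultures fewer cells of a type and less RNA per cell cannot be told apart. The part of these shifts in the thioesterase values was not tested.

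The genes whose ratios followed a member most closely over the 16 arrays were found for 1 member of each compartment, leaving other members out. For Acot1 they were Renbp, Uap1l1 and Gsta5 (Pearson's r of 0.99 each), for Acot2 Slc16a6, Atp6v0d2 and Ptdss2 (r of 0.99 each), and for Acot8 Srms (r of 0.89), Noc4l (r of 0.88) and Rsph1 (r of 0.86). For Acot1 and Acot2 the arrays form 2 separate clusters by drug, so these coefficients take in that separation. A high r does not mean a like size or direction of change. With SQ1 and then pravastatin, Renbp was at 1.345 and -0.029, Uap1l1 at 1.99 and 0.098, and Gsta5 at 1.76 and -0.90. In the same order, Slc16a6 was at 1.80 and 0.23, Atp6v0d2 at 1.34 and 0.20, and Ptdss2 at 0.57 and 0.11. Srms was at 0.10 and -0.041, Noc4l at 0.19 and 0.018, and Rsph1 at 0.41 and 0.28. The arrays also share control numbers, scan days and slides.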

How the data were processed

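RNA of rat hepatocyte cultures was measured on 16 two-colour Agilent arrays. Per the file headers, the authors' scanner files hold spot intensity values made with Agilent Feature Extraction 10.7.1.1 and a log10 ratio of red over green. The deposited value table holds log2 ratios whose normalisation is not given in the sources used here. Its direction and scale matched the scanner log10 ratio (slope 0.998 to 1.01 on the log2 scale), its column medians ran from -0.061 to 0.10, and its columns were exchanged between the drugs. It served only as an alternative.

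From the median spot intensities, local background was corrected with normexp (offset 50) and dyes with loess in limma 3.58.1 (R 4.3.3). Control and outlier spots were left out. Spots whose local background was over 1.25 times the median of their array (at most 23 per array) were left out too. This was chosen after seeing the data, because on pravastatin replicate 1, 7 spots of over 2 times the median background distorted the background fit and compressed the ratios. Probes had to be well above background in 6 of 32 channel measurements. The brightest probe stood for each gene with a symbol, and a probe without a symbol stood for itself. A fit over all 16 arrays had a term per drug and one for dye orientation.

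Replicate numbers are in the labels, and residuals of same-numbered arrays of the 2 drugs correlated in all 8 pairs (r from 0.156 to 0.643). The best differently numbered array gave a higher r than the same-numbered one for replicates 2, 7 and 8 (0.364, 0.40 and 0.334, against 0.348, 0.358 and 0.156). The numbers were taken to pair the samples because every pair exceeded 0.1. The best differently numbered array exceeded that limit for every replicate too. Same-numbered arrays of the 2 drugs also share a scan day, which the residuals still hold. These correlations therefore cannot show whether cultures were shared. The control numbers of the scanner files pair the arrays in the same way. The block correlation was 0.433 (statmod 1.5.0). The script was tested on simulated data. The members and lists were chosen with earlier results of these data known. Every member and probe is named; of each other list, the 3 called genes of largest change per drug are named, except a few that are not reported here, and for Acot1, Acot2 and Acot8 the 3 most correlated genes. Alternatives covered background, offset, normalisation, scaling, filter, probes, block, scan day, source of values, single arrays and the test. The number of arrays limits the precision.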

Additional observations from a re-analysis of the deposited data

Results flagged for a closer look

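A difference between the 2 scan days, tested within each drug by limma over all genes, was called for 7 values of members. With SQ1 the second day minus the first was -0.22 for Acot12 (adjusted p = 0.020), 0.25 for Acot2 (adjusted p = 0.017), -0.18 for Acot13 (adjusted p = 0.0048) and 0.21 for Acot3 (adjusted p = 0.0028). With pravastatin it was -0.30 for Acot12 (adjusted p = 0.0087), -0.23 for Acot13 (adjusted p = 0.0033) and -0.23 for Acot4 (adjusted p = 0.042). Within a drug the slide changed with the day, so these differences cannot be told apart from differences between slides. Whether the difference between days itself differed between the drugs was not tested. No single array of a member stood apart from the other 7 of its drug by Dixon's criterion for 8 values, the nearest being Acot2 with pravastatin at 0.51.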

How the results depend on the processing

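The numbers of members called higher and lower with SQ1 and with pravastatin stayed within 1.5 times of those reported under each alternative. This limit cannot show that the results are stable, because a full exchange of the drugs passes it. With the deposited columns as labelled, the counts higher and lower were 7 and 2 for SQ1 and 8 and 2 for pravastatin. Of the values and calls of single members, 513 kept direction and side of the threshold. Another 15 lost the call, 6 gained it and 12 turned direction. The 513 do not speak to size, since they include Acot1 with SQ1 at 0.25 in those columns, against 2.93 in the main fit. All 12 that turned came from the deposited table with its columns as labelled, which exchanges the drugs. There Acot8 was -0.077 with SQ1 and 0.096 with pravastatin. The differences SQ1 minus pravastatin were -2.78 for Acot1, -0.77 for Acot7, -0.34 for Acot12, -1.62 for Acot2, -0.43 for Acot9, -0.094 for Acot13, -0.97 for Acot3, -1.11 for Acot4, -0.71 for Acot5 and -0.17 for Acot8, with 0 members higher and 9 lower. In that table the cytosolic, mitochondrial and peroxisomal medians were 0.23, 0.14 and 0.15 with SQ1, 1.00, 0.56 and 1.20 with pravastatin, and -0.77, -0.43 and -0.84 for the difference. With the drugs exchanged in that table no member turned direction.

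The cytosolic SQ1 median was 1.07 with median centring and 0.84 with arrays scaled to 1 spread, which gave 0.99 for the peroxisomal one and 0.59 and 0.54 for the cytosolic and peroxisomal difference. With Acot13 among the cytosolic members the cytosolic medians were 0.34, -0.079 and 0.54 for SQ1, pravastatin and the difference, and the mitochondrial ones 1.15 for SQ1 and 1.01 for the difference. The cause of the shifts under scaling and centring was not tested.

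With the replicate block, fixed, the Acot13 difference of 0.080 was called (adjusted p = 0.020; 0.092 with the random block), and with the random replicate block the Acot8 SQ1 value of 0.078 was not (adjusted p = 0.061). The block changed no other call of a member. Median centring (0.14), scaled arrays (0.18) and a scan-day term (0.080) also called the Acot13 difference, and scaled arrays called Acot8 with pravastatin (-0.087, adjusted p = 0.041). The Acot8 SQ1 call was also lost with scaled arrays (0.068), without the filter, by ordinary least squares and on the second scan day (0.047). The pravastatin calls of Acot2 and Acot4 were lost with the mean of the probes (0.10 and 0.078).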
